A study of Mus musculus with 32 samples.

Results

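The 10 genes described here encode the regulatory proteins of the thin filament in striated muscle: troponin C (Tnnc1, Tnnc2), troponin I (Tnni1, Tnni2), troponin T (Tnnt1, Tnnt2, Tnnt3) and tropomyosin (Tpm1, Tpm2, Tpm3). They were taken by symbol from the raw count table, where all 10 were found among 24421 rows. The 32 RNA libraries are from mouse: extraocular muscle, which turns the eyeball (EOM), tibialis anterior, a fast muscle of the lower leg (TA), and samples named for oculomotor (CN3) and abducens (CN6) motor neurons. Each tissue was taken from pigmented C57BL/6 mice and from albino mice of strain B6(CG)Tyr(c-2J)/J, whose tyrosinase gene Tyr carries the c-2J allele, with 4 libraries per strain and tissue. The labels state no treatment, age or pooling, and do not say that the libraries of a group came from separate animals, so each p-value measures the spread between these libraries, which may be technical.

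Troponin C binds calcium when a muscle is activated, troponin I holds the filament off until then, and troponin T ties the complex to tropomyosin, the coiled rod that covers the myosin sites on actin. Fast and slow fibres use different genes for each subunit, and heart and developing muscle use further ones. Tropomyosin genes are also read in cells without sarcomeres, where shorter products stabilise the actin cytoskeleton. Extraocular muscle is known for mixing fast, slow, embryonic and cardiac forms of contractile proteins, and tibialis anterior is made almost wholly of fast fibres.

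In 8 of the 16 albino libraries the marker genes of the tissue went against the label. Levels are in CPM, counts scaled by the library total. Ckm, the muscle creatine kinase, read 0 to 0.306 CPM, and Snap25, a synaptic gene, 2447 to 3221 CPM in 4 libraries labelled as albino muscle (EOM 1, EOM 2, TA 1, TA 2). In 4 labelled as albino neuron samples (CN3 3, CN3 4, CN6 3, CN6 4) Ckm read 5320 to 13330 CPM. Albino groups were therefore set by markers: EOM holds the libraries labelled EOM 3, EOM 4, CN3 3 and CN3 4, TA those labelled TA 3, TA 4, CN6 3 and CN6 4, CN3 those labelled CN3 1, CN3 2, EOM 1 and EOM 2, and CN6 those labelled CN6 1, CN6 2, TA 1 and TA 2. Ckm and Snap25 separate muscle from brain and do not tell CN3 from CN6. Genotype results are given with the 4 libraries of each albino group and with the 2 that match their label. Myh13, the extraocular myosin, stood at 3742 to 4980 CPM in the 8 EOM libraries and 19.5 to 34.8 CPM in 7 TA libraries, with 94.0 CPM in the library labelled albino CN6 4. That library stood apart from the other 3 albino TA libraries over all genes, with a chi-square per degree of freedom of 168.1 to 206.1 against each, and they differed from each other by 18.6 to 32.3. Of 5 limb markers, the genes Hoxa10, Hoxa11 and Hoxc10 were at or near 0 in EOM, while Tbx15 and Pitx1 were higher there and went against their list. The motor neuron markers Chat, Slc18a3, Slc5a7, Isl1 and Phox2a summed to 1.62 to 4.45 CPM in C57BL/6 CN3, with Phox2a at 0 in all 4, against 37.5 to 88.1 CPM in albino CN3, 52.0 to 123.8 CPM in C57BL/6 CN6 and 115.3 to 136.8 CPM in albino CN6. The CN6 library labelled albino CN6 1 held 2.61 CPM of the hindbrain gene Hoxb3, below the other 7 CN6 libraries, and the one labelled albino TA 1 held 32.7 CPM of the midbrain gene Otx2. C57BL/6 CN6 held 0.402 to 1.30 CPM of Otx2, albino CN3 7.08 to 22.8 CPM and C57BL/6 CN3 9.45 to 26.4 CPM. Otx2 thus went against placing the library labelled albino TA 1 in CN6. A library held 18544334 to 44254021 counts.

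The members lie on 7 chromosomes in the mm10 build (GENCODE vM21). Troponin I and troponin T genes sit in neighbouring pairs on the same strand. Tnni2 (chr7:142441808-142444410) and Tnnt3 (chr7:142498836-142516009), the fast pair, are 54.4 kb apart. Tnni1 (chr1:135779434-135810989), the slow troponin I, and Tnnt2 (chr1:135836354-135852260), the cardiac troponin T, are 25.4 kb apart. Tnnt1 (chr7:4504570-4516382), the slow troponin T, lies 1.9 kb from Tnni3, the cardiac troponin I. Tnnc1 (chr14:31208312-31211729) encodes the slow and cardiac troponin C, and Tnnc2 (chr2:164777161-164779967) the fast one. Of the 800 exonic bases of Tnnc2, 592 overlap Ube2c on the opposite strand, and the strand setting of the counting is not given in the sources used here, so reads of these genes cannot be told apart. Tpm1 (chr9:67022590-67049406), Tpm2 (chr4:43514711-43523765) and Tpm3 (chr3:90072649-90100902) encode the alpha, beta and slow alpha tropomyosins. Their counts, and those of Tnnt3 with 23 annotated coding transcripts, add up all splice forms.

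The 5 genes that were higher in EOM than in TA moved together although they lie on 4 chromosomes, so the 250 bases before their start site are shown (RefSeq, GRCm38.p6, the patch release of the same build). They come from chr14:31208062-31208311 for Tnnc1, chr1:135799171-135799420 for the first of 2 listed starts of Tnni1, chr7:4515976-4516225 on the minus strand for Tnnt1, chr1:135836084-135836333 for the first start of Tnnt2 and chr3:90072401-90072650 for the first start of Tpm3. Capitals mark E-boxes (CANNTG, bound by MyoD family factors), MCAT elements (CATTCC on either strand, bound by TEAD factors), TATA boxes (TATAAA on the gene's strand), and MEF2 and CArG elements, of which the last 2 kinds have no match here.
Tnnc1: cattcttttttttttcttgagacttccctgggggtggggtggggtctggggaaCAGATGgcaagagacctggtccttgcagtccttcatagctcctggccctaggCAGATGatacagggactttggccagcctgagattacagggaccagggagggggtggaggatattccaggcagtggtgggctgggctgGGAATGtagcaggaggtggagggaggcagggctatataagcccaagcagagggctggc
Tnni1: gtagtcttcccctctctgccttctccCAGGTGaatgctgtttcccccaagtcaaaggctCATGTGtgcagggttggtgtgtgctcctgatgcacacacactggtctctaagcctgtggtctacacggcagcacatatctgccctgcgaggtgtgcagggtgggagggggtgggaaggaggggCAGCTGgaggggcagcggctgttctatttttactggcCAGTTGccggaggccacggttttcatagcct
Tnnt1: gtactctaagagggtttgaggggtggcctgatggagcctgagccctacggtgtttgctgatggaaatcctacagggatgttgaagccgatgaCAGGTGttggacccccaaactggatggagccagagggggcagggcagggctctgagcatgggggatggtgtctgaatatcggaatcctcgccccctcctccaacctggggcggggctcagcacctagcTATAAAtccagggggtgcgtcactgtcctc
Tnnt2: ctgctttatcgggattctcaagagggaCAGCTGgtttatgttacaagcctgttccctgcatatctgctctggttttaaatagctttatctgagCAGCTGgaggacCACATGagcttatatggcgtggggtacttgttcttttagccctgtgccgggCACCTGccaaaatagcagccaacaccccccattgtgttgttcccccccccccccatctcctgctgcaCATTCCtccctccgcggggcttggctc
Tpm3: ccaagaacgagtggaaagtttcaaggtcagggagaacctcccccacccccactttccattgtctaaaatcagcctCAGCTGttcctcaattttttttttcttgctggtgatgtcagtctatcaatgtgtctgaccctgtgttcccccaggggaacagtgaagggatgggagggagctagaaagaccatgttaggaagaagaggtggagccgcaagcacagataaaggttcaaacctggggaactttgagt
Each of the 5 windows holds at least 1 E-box, as do 66.2% of 32851 RefSeq promoter windows of that length. Tnni1 and Tnnt2 hold 4 each and Tnnc1 holds 2. The E-box CAGCTG, counted among them, is in 3 of the 5 (Tnni1, Tnnt2 with 2, and Tpm3), against 13% of all windows. An MCAT element is in Tnnc1 and Tnnt2, against 12.6% of all windows, and of the 5 the TATA box is in Tnnt1 alone, against 7.59%. Members lower in EOM hold such motifs too, with CAGCTG in Tpm2, an MCAT element in Tpm1, and E-boxes in Tnnc2, Tpm1 and Tpm2. Tnni2 and Tnnt3 have no entry. Over the 8 members with an entry there were 11 windows, and all 11 held an E-box. The 11 are not all separate, since the windows of the 2 Tnni1 starts overlap and share E-boxes. A match is a string of letters, not a measured site. MEF2 and CArG elements, searched on both strands, are in 2.92% and 1.47% of all windows. The windows of Tnni1, Tnnt1 and Tpm3 shown overlap annotated exons of their own gene by 19, 29 and 2 bases. Those of Tnnc2, Tpm1 and Tpm2 do so by 106 to 193 bases and are not shown. Also not shown are the second windows of Tnni1 and Tnnt2, which do so by 95 and 250 bases.

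EOM and TA of C57BL/6 mice held these genes at different levels. All 5 slow, cardiac or developmental members (Tnnc1, Tnni1, Tnnt1, Tnnt2, Tpm3) were higher in EOM, and all 5 fast or general members (Tnnc2, Tnni2, Tnnt3, Tpm1, Tpm2) were lower. Each of the 10 was called at an adjusted p under 0.05 (edgeR's quasi-likelihood test, Benjamini-Hochberg adjustment over all genes tested), and for none did the groups overlap. The tissues differed widely, with 77.2% of 14408 genes called, 42.3% higher and 35% lower, so the counts of members called say little by themselves. No share of all genes without overlap is given, here or in the comparisons below. A lack of overlap therefore only describes the members' libraries. The size of the changes is described against a median log2 fold change of 0.10 over all genes tested. Fold changes use TMM factors, which set TA libraries (0.783 to 0.799) apart from EOM libraries (1.24 to 1.29), whereas CPM uses library totals alone. So each fold printed for EOM against TA differs from the ratio of the CPM beside it by over 1.5 times. On library totals alone the median over all genes was 0.78 and 86.8% of the genes called were higher in EOM, against 54.7% with TMM. All 10 members kept their call and direction there, with log2 fold changes of 5.54 for Tnnc1, 6.90 for Tnni1, 5.59 for Tnnt1, 2.91 for Tnnt2 and 5.61 for Tpm3, and of −1.28 for Tnnc2, −1.19 for Tnni2, −1.36 for Tnnt3, −2.20 for Tpm1 and −0.48 for Tpm2. Because these are bulk samples, fewer fibres of a type and less RNA per fibre cannot be told apart.

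Tnni1, which encodes slow troponin I, read 454, 387, 314 and 382 CPM in the EOM libraries C57BL/6 1 to 4. In TA it read 3.80, 3.15, 1.73 and 4.08 CPM. The log2 fold change was 6.23 ± 0.20 (SE, n = 4 and 4), a 74.9-fold difference with TMM factors (adjusted p = 8.93e-11). This was the widest gap of the 10, with every EOM library far above every TA library. Tnnc1, the slow troponin C, read 242, 202, 179 and 202 CPM in EOM and 5.36, 3.99, 2.42 and 5.86 CPM in TA, a log2 fold change of 4.86 ± 0.19 (adjusted p = 5.19e-10). Tnnt1, the slow troponin T, read 439, 367, 355 and 383 CPM in EOM and 9.92, 7.75, 4.94 and 9.30 CPM in TA, a log2 fold change of 4.92 ± 0.17 (adjusted p = 1.53e-10). Slow troponin RNA was thus low in TA but counted in every library. Tpm3, the slow tropomyosin, was the most abundant member of this set in EOM, at 1703, 1513, 1472 and 1473 CPM. In TA it read 33.1, 35.0, 21.4 and 36.3 CPM, a log2 fold change of 4.94 ± 0.15 (adjusted p = 6e-11). Tnnt2, the cardiac troponin T that developing skeletal muscle also uses, read 31.2, 25.8, 36.6 and 28.8 CPM in EOM and 4.16, 4.14, 2.30 and 5.61 CPM in TA. Its log2 fold change of 2.23 ± 0.20 (adjusted p = 6.33e-07) was the smallest of the 5. In TA all 5 were lowest in the library C57BL/6 TA 3, and in EOM 4 of the 5 (not Tnnt2) were highest in C57BL/6 EOM 1.

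**Figure D1:**
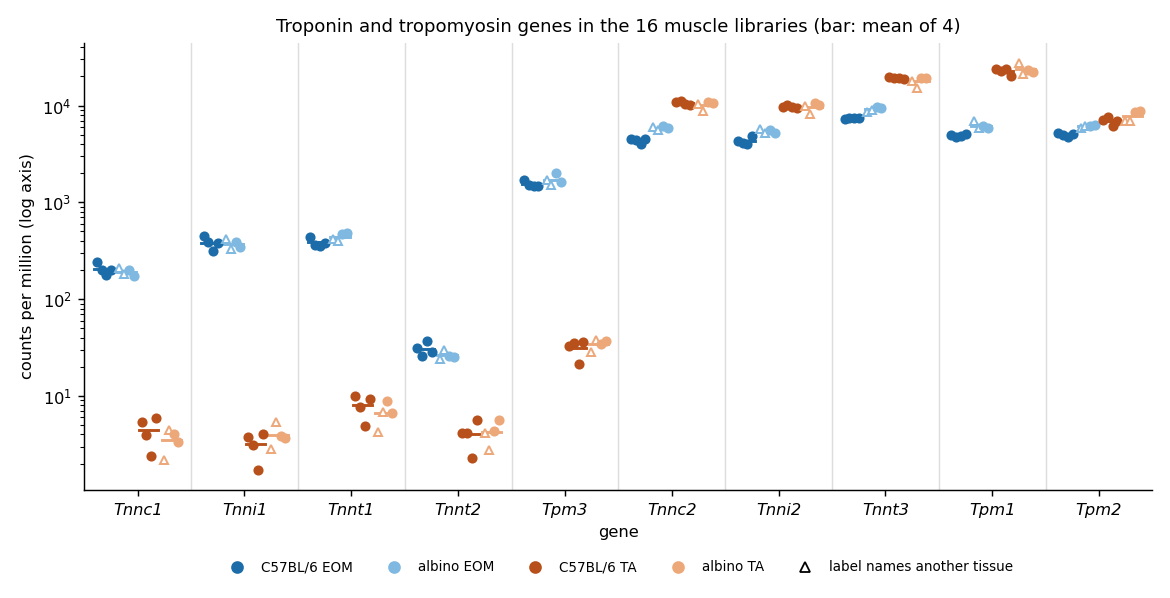
CPM (log axis) of the 10 genes in the 16 muscle libraries, one point per library, with a bar at the mean of each group of 4; open triangles are albino libraries whose label names another tissue. In both strains the 5 genes on the left are higher in EOM and the 5 on the right are higher in TA, with the closest levels for Tpm2.

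The fast troponins were strongly expressed in both muscles and fell by a similar factor in EOM. Tnnt3, the fast troponin T, read 7334, 7452, 7401 and 7516 CPM in EOM and 19530, 19050, 19140 and 18790 CPM in TA, a log2 fold change of −2.04 ± 0.05, or 4.11-fold lower (adjusted p = 1.34e-11). Tnnc2, the fast troponin C, read 4518, 4411, 4030 and 4477 CPM in EOM and 10820, 11190, 10390 and 10100 CPM in TA, a log2 fold change of −1.96 ± 0.06 (adjusted p = 1.15e-10). Tnni2, the fast troponin I, read 4303, 4084, 4029 and 4791 CPM in EOM and 9774, 10220, 9711 and 9521 CPM in TA, a log2 fold change of −1.86 ± 0.07 (adjusted p = 3.58e-10). The log2 fold changes of the 3 fast subunits thus ran from −2.04 to −1.86, and those of the 3 slow ones from 4.86 to 6.23. Tpm1, the alpha tropomyosin of fast and cardiac muscle, read 4920, 4765, 4798 and 5035 CPM in EOM and 23580, 22520, 23960 and 19980 CPM in TA. Its log2 fold change of −2.88 ± 0.07, or 7.36-fold lower (adjusted p = 1.72e-11), was the largest decrease. Tpm2, the beta tropomyosin found in fast and slow fibres, read 5188, 4939, 4731 and 5091 CPM in EOM and 7027, 7692, 6221 and 6850 CPM in TA, a log2 fold change of −1.15 ± 0.07 (adjusted p = 1.64e-08).

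Levels of different genes were compared per kilobase of the longest principal transcript (CPM per kb). In C57BL/6 EOM the order was Tnnt3 (7370 ± 76.5, SD, n = 4), Tnnc2 (6230 ± 320), Tnni2 (5600 ± 452), Tpm1 (2570 ± 65.2), Tpm2 (2380 ± 94.9), Tpm3 (690 ± 49.3), Tnnt1 (376 ± 36.4), Tnni1 (334 ± 49.9), Tnnc1 (286 ± 36.4) and Tnnt2 (25.5 ± 3.81). The ranges over libraries overlapped between Tnnc2 and Tnni2, between Tnnt1 and Tnni1, and between Tnni1 and Tnnc1. Such ranges do not pair the genes within a library, and in every EOM library the first of each pair was above the second. In TA the first 5 places were the same, from 19000 ± 305 for Tnnt3 to 3310 ± 288 for Tpm2, with Tnni2 and Tpm1 overlapping. The slow set followed at 14.1 ± 3.05 CPM per kb for Tpm3 and less for the others, and each neighbour in it overlapped the next. Summed over the members of each kind, troponin C, I and T stood at 6513 ± 349, 5935 ± 469 and 7775 ± 61.1 CPM per kb in EOM and 15185 ± 684, 12772 ± 385 and 19006 ± 304 in TA. Tropomyosin stood at 5638 ± 177 and 15185 ± 924. Each of the 4 sums over the members was thus lower in EOM on this scale of library totals.

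Most troponin RNA in EOM was still of the fast kind. Per kilobase, Tnnc1 made up 4.39 ± 0.379% (SD, n = 4) of troponin C RNA in C57BL/6 EOM, Tnni1 5.63 ± 0.778% of troponin I and Tnnt1 4.83 ± 0.476% of troponin T, with Tnnt2 at 0.328 ± 0.0507%. In TA these shares were 0.0404 ± 0.0148%, 0.0217 ± 0.00736%, 0.0408 ± 0.0113% and 0.0178 ± 0.00613%. The slow gene was thus a small part of each troponin subunit in EOM, and a far smaller one in TA. These shares, and those below, are over the members alone and leave out Tnni3 and Tpm4. Tropomyosin was mixed more evenly. In EOM the 3 members stood at 45.6 ± 0.905% Tpm1, 42.2 ± 0.488% Tpm2 and 12.2 ± 0.656% Tpm3, against 78.0 ± 2.24%, 21.9 ± 2.21% and 0.0935 ± 0.0236% in TA.

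The ratio of fast to slow counts within each library does not depend on library scaling. The ratio of Tnnc2 to Tnnc1 counts was 21.3 ± 1.81 in C57BL/6 EOM and 2707 ± 1146 in TA. For Tnni2 to Tnni1 it was 11.4 ± 1.61 and 3442 ± 1495, for Tnnt3 to Tnnt1 19.4 ± 1.83 and 2582 ± 892, and for Tpm1 to Tpm3 3.18 ± 0.223 and 756 ± 250. In TA, where slow counts were low and the SDs wide, the library C57BL/6 TA 3 had the highest value of each ratio. On the log2 scale, with 0.5 added to each count, the 4 ratios differed by −6.90, −8.16, −7.0 and −7.84 in EOM against TA. For each the 4 EOM and 4 TA libraries did not overlap. The two-sided exact permutation test gave p = 0.0286 for each, the smallest that 4 against 4 libraries allow, and 0.0571 after Benjamini-Hochberg adjustment over the 12 ratio tests, so none passed after adjustment.

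**Figure D2:**
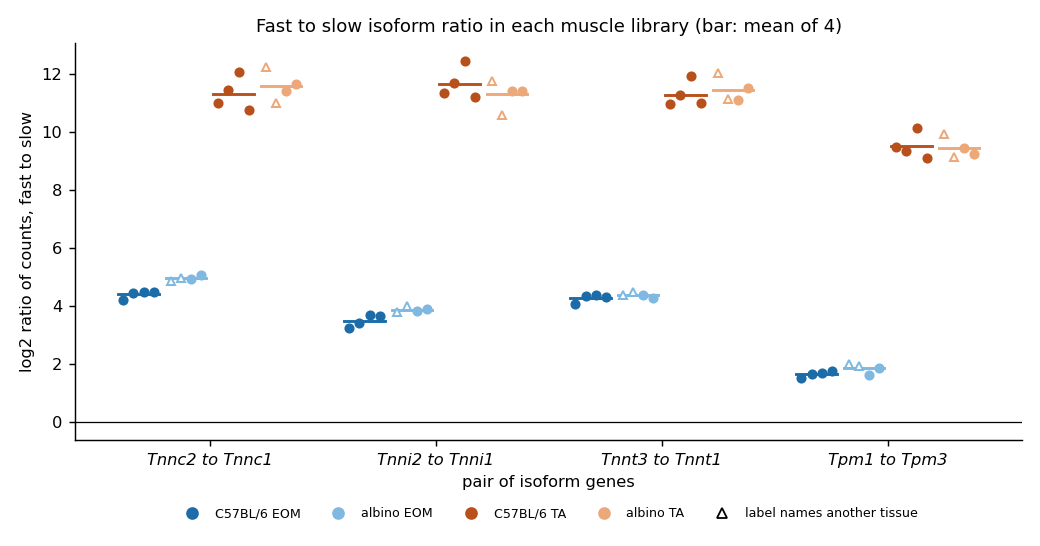
Log2 ratio of fast to slow counts (0.5 added to each) for 4 pairs of genes in each muscle library, with a bar at the mean of each group of 4; open triangles are albino libraries whose label names another tissue. EOM lies below TA for every pair in both strains, and the genotype groups lie apart only for Tnnc2 to Tnnc1 and Tnni2 to Tnni1 in EOM.

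The tissue difference was repeated in albino muscle, which shares no library with the C57BL/6 comparison. In the 2 against 2 libraries that match their label, all 10 members were called in the same direction, with log2 fold changes of 5.91 for Tnni1, 4.99 for Tnnc1, 5.26 for Tnnt1, 4.98 for Tpm3 and 1.65 for Tnnt2. The lower members stood at −1.54 for Tnnc2, −1.62 for Tnni2, −1.70 for Tnnt3, −2.62 for Tpm1 and −1.18 for Tpm2. With all 4 against 4 grouped by markers, the values ran from 1.93 to 5.82 and from −2.64 to −1.06, and again all 10 were called. No share of all genes called is given for these albino fits, and in C57BL/6 it was 77.2%. The counts of members called therefore say little by themselves here too.

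Other thin filament genes were divided between the tissues too. Of 24 partners, 9 were higher in EOM, 13 were lower and 2 were not called (median log2 fold change −0.29, against 0.10 over all genes tested). On library totals alone 15 were higher and 8 lower, at a median of 0.38. Lower in EOM were Acta1, the adult skeletal actin (−2.44 ± 0.06), Actn3, the fast fibre alpha-actinin of the Z disc (−4.33 ± 0.09), and Tmod4, a tropomodulin that caps the pointed end of the filament (−2.29 ± 0.06). Actc1, the cardiac actin that developing muscle also makes, was higher, at 2747 ± 148 against 78.9 ± 12.7 CPM (SD, n = 4), a log2 fold change of 4.45 ± 0.12 (adjusted p = 3.09e-11). Tnni3, the cardiac troponin I beside Tnnt1, stayed at 0.863 to 2.74 CPM in EOM and 0 to 0.160 CPM in TA. Tpm4, a tropomyosin mainly of non-muscle cells, was at 131.5 ± 10.2 and 34.9 ± 6.35 CPM.

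**Figure D3:**
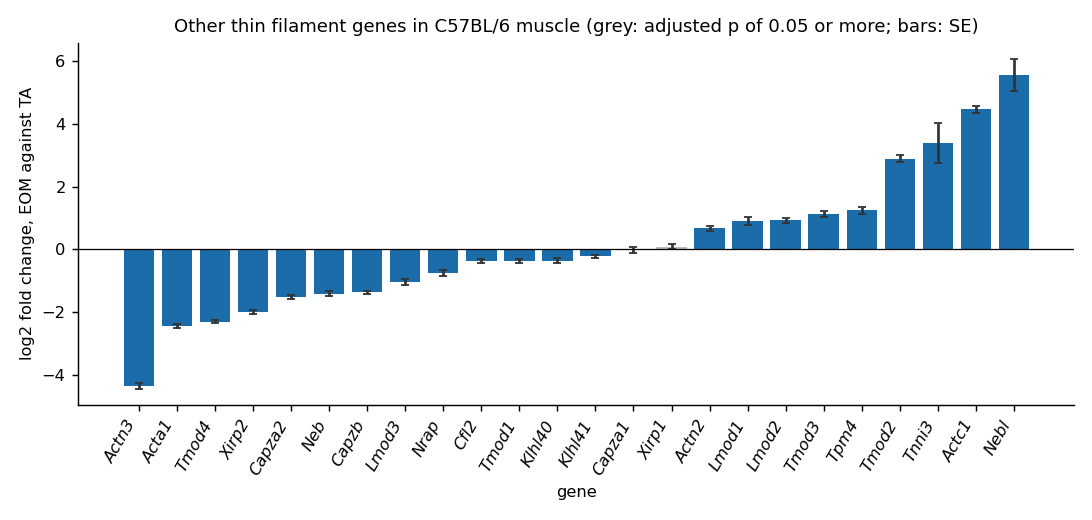
Log2 fold change in EOM against TA of C57BL/6 mice for 24 other genes of the thin filament, with bars at the SE (n = 4 and 4); genes not called are grey. The actins diverge, with Acta1 at −2.44 and Actc1 at 4.45.

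Genes of fibre types moved with the members. All 10 fast fibre genes tested were lower in EOM (median −1.88, and 9 of 10 on library totals alone), among them Pvalb, the calcium buffer parvalbumin (−2.80 ± 0.07), and Mybpc2, the fast myosin-binding protein C (−3.27 ± 0.07). Of 10 slow fibre genes, 8 were higher and 2, Ankrd2 and Myl3, were lower (median 1.78), Myl3 without a call on library totals alone; Myh7, the slow myosin, stood at 5.78 ± 0.25 and Myl6b, a slow myosin light chain, at 4.31 ± 0.11. All 6 of 10 cardiac genes that could be tested were higher (median 3.39), led by Pln, the calcium pump inhibitor phospholamban (4.96 ± 0.10). Actn3 and Actc1 stand in more than one of these lists. Of 9 developmental genes tested, 8 were higher, with Myh3, the embryonic myosin, at 7.56 ± 0.18, and Myod1, a myogenic regulator, was lower. Markers of other cells rose as well. All 8 fibroblast genes and 8 of 10 smooth muscle genes (9 on library totals alone) were higher in EOM, with fibroblast markers at a summed level of 5379 to 6138 CPM in EOM and of 476 to 682 CPM in TA; their part in the members' differences was not tested. Of 14 splicing regulators, some of which act on troponin T or tropomyosin transcripts, 5 were higher and 5 lower (10 and 3 on library totals alone), with Rbm20 at −2.40 ± 0.05 and Ptbp1 at 1.31 ± 0.08.

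Between the strains the differences were small; the C57BL/6 EOM and TA libraries are the same as in the tissue comparison. In EOM 5 of the 10 members were higher in albino libraries grouped by markers, and none was lower, against a background of 38.9% of 15019 genes called (17.8% higher and 21.2% lower). The 5 were the 3 fast troponins, Tpm1 and Tpm2. In the libraries C57BL/6 EOM 1 to 4 Tnnc2 read the 4 values given above, 4030 to 4518 CPM. It read 6133 and 5882 CPM in those labelled albino EOM 3 and 4, and 6022 and 5558 CPM in those labelled albino CN3 3 and 4, so that the groups did not overlap. The log2 fold change was 0.44 ± 0.08 (adjusted p = 0.00238). Tnni2 read 5557 and 5235 CPM, and 5755 and 5200 CPM, in the same albino libraries, against 4029 to 4791 CPM in C57BL/6 (0.34 ± 0.09, adjusted p = 0.0158). Tnnt3 read 9703 and 9380 CPM, and 8610 and 8902 CPM, against 7334 to 7516 CPM (0.30 ± 0.07, adjusted p = 0.00798). All 4 albino libraries were above all 4 of C57BL/6 for each subunit. Tpm1 read 6220 and 5807 CPM, and 6875 and 5861 CPM, against 4765 to 5035 CPM (0.34 ± 0.09, adjusted p = 0.0103). Tpm2 read 6094 and 6302 CPM, and 5887 and 6155 CPM, against 4731 to 5188 CPM (0.29 ± 0.07, adjusted p = 0.00872). These tropomyosin groups did not overlap either.

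The slow and cardiac members were not called in EOM, and their groups overlapped. Log2 fold changes were −0.11 ± 0.11 for Tnnc1, −0.05 ± 0.13 for Tnni1, 0.20 ± 0.10 for Tnnt1, −0.22 ± 0.10 for Tnnt2 and 0.16 ± 0.10 for Tpm3 (adjusted p = 0.451, 0.798, 0.141, 0.104 and 0.239). With the 2 albino libraries that match their label, the 5 calls stood at 0.48 (Tnnc2), 0.34 (Tnni2), 0.38 (Tnnt3), 0.32 (Tpm1) and 0.33 (Tpm2), and Tnnt1 was called too, at 0.33 (adjusted p = 0.0411). Without the library labelled albino CN3 4, Tnnt1 and Tpm3 were called as well, at 0.29 and 0.24, without C57BL/6 EOM 2 Tnnt2 was called at −0.30, and Tnni2 was no longer called, at 0.30 (adjusted p = 0.0654). The 10 members made up 2.74 to 2.94% of all counts in C57BL/6 EOM and 3.41 to 3.68% in albino EOM.

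Gene properties moved with the genotype in muscle. The genes were split into 4 equal bins by GC content and by exon length. In EOM the median log2 fold change ran from −0.34 in the bin of lowest GC content to 0.27 in the highest, and from 0.28 in the shortest bin to −0.30 in the longest. In TA the medians ran from −0.21 to 0.19 and from 0.13 to −0.09. With offsets for GC content and exon length, 4 of the 5 EOM calls ended: Tnnc2 stood at −0.05, Tnni2 at −0.10, Tnnt3 at −0.06 and Tpm2 at 0.02. Tpm1 stayed called at 0.43, and Tnnc1 was called lower at −0.55 (adjusted p = 0.00222). Whether preparation or strain gives this pattern cannot be told apart, since the labels name no batch. Fibroblast markers had a summed level of 4045 to 4469 CPM in albino EOM, below the C57BL/6 range given above, with 7 of 8 lower. Of the 7 skeletal muscle markers 4 were higher and 2, Cacna1s and Ryr1, were lower, and they summed to 36377 to 43146 CPM in albino and 30594 to 33455 CPM in C57BL/6 libraries. Their part in the members' differences was not tested.

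Of the 24 thin filament partners, 2 were higher in albino EOM and 10 lower (median −0.20, against 0.01 over all genes tested). Among them were Tmod2, a tropomodulin (−1.09 ± 0.07, adjusted p = 2.52e-05), Lmod2, a leiomodin that lengthens the filament (−0.59 ± 0.06), and Cfl2, the muscle cofilin that severs actin (−0.56 ± 0.08), while Acta1 was higher (0.37 ± 0.10, adjusted p = 0.0123). Of 10 fast fibre genes, 2 were higher (Pvalb at 0.59 ± 0.08 and the light chain Mylpf at 0.34 ± 0.10) and 3 were lower, among them the fast myosins Myh1 (−0.36 ± 0.09) and Myh4 (−0.31 ± 0.10). Of 14 splicing regulators 10 were lower, and Rbm20 alone was higher (0.52 ± 0.07).

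In TA 0 of 10 members were called by edgeR, against a background of 33.7% of 12956 genes (16.6% higher and 17% lower). None, 0 of 10, reached an unadjusted p of 0.05. Limma voom called 1, Tpm2, and DESeq2 called 0. Every member's groups overlapped. Tnnc2 read 10820, 11190, 10390 and 10100 CPM in C57BL/6, 10940 and 10640 CPM in the libraries labelled albino TA 3 and 4, and 10490 and 8863 CPM in those labelled albino CN6 3 and 4. Its log2 fold change was −0.04 ± 0.08, with 0.00 ± 0.08 for Tnni2, −0.09 ± 0.08 for Tnnt3 and 0.08 ± 0.10 for Tpm1. Those of Tnnc1, Tnni1, Tnnt1, Tnnt2 and Tpm3 were −0.31 ± 0.27, 0.34 ± 0.26, −0.24 ± 0.22, 0.07 ± 0.24 and 0.14 ± 0.14, with the wide errors of low counts. Tpm2 read 7027, 7692, 6221 and 6850 CPM in C57BL/6, 8554 and 8819 CPM in the albino TA libraries that match their label, and 6859 and 6922 CPM in the other 2. Its log2 fold change was 0.18 ± 0.10 (adjusted p = 0.171). It was called with the matching libraries alone, at 0.29 (adjusted p = 0.00526), and without the library labelled albino CN6 3, at 0.23. Without the library labelled albino CN6 4, which stood apart, it was at 0.19 (adjusted p = 0.138) and 0 members were called. With offsets for GC content and length Tnnc2, Tnni2 and Tnnt3 were called lower in albino TA, at −0.29, −0.26 and −0.29. No share of all genes called with these offsets is given for TA, and the 33.7% above is for the fit without them. These calls are therefore not read as a result about the fast troponins. Of 22 partners tested, 4 were higher and 8 lower, with Cfl2 at −0.62 ± 0.06 and Lmod2 at −0.99 ± 0.11. Fibroblast markers reached 840 to 1356 CPM in albino TA, above the C57BL/6 range given above, with 7 of 8 higher; their part was not tested.

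For the 3 fast troponins the albino effect was larger in EOM than in TA by an interaction term, against a background of 13% of 15267 genes (5.54% higher and 7.48% lower in EOM). The log2 difference of EOM minus TA was 0.53 ± 0.11 for Tnnc2 (adjusted p = 0.0048), 0.43 ± 0.10 for Tnnt3 (adjusted p = 0.00953) and 0.39 ± 0.12 for Tnni2 (adjusted p = 0.0397). With offsets for GC content and length none of the 10 members was called, 0 in all, with 0.30 for Tnnc2 (adjusted p = 0.0629), 0.28 for Tnnt3 (adjusted p = 0.0623) and 0.21 for Tnni2 (adjusted p = 0.227). Without the library labelled albino CN6 4 the values were 0.50, 0.40 and 0.35, and Tnni2 was not called. For Tpm1 the difference was 0.32 ± 0.13 (adjusted p = 0.119) and for Tpm2 0.16 ± 0.12 (adjusted p = 0.412). With the libraries that match their label Tnnc2 and Tnnt3 were called and Tnni2 was not (0.29, adjusted p = 0.192). Tnni2 also lost its call when any of 12 of the 16 libraries was left out, and 0 members were called when all 32 libraries entered 1 fit. Fast fibre genes called in the same direction were Pvalb (0.54 ± 0.13) and Actn3 (0.47 ± 0.14), 2 of 10, and all 8 fibroblast markers went the opposite way.

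**Figure D4:**
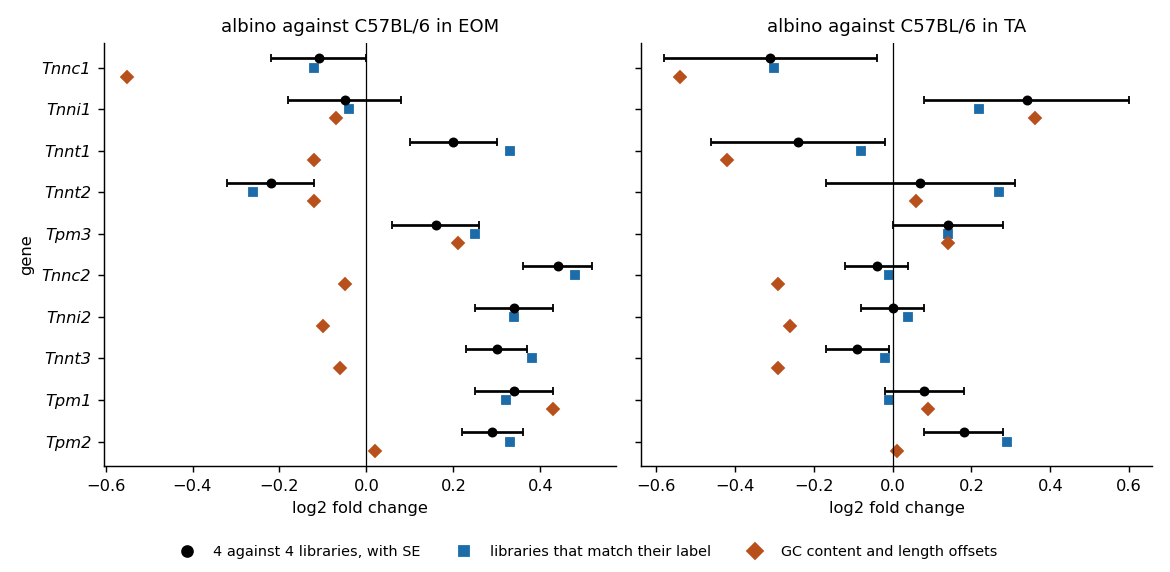
Log2 fold change of albino against C57BL/6 for the 10 genes in EOM (left) and TA (right): circles with SE for 4 against 4 libraries, squares for the albino libraries that match their label, diamonds with offsets for GC content and length. In EOM the diamonds of Tnnc2, Tnni2, Tnnt3 and Tpm2 lie near 0 while that of Tpm1 stays at 0.43.

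Of the 4 fast to slow ratios, 2 lay apart between the strains in EOM. The log2 ratio of Tnnc2 to Tnnc1 was 4.95 ± 0.09 (SD, n = 4) in albino EOM and 4.41 ± 0.13 in C57BL/6, a difference of 0.54, and that of Tnni2 to Tnni1 was 3.88 ± 0.09 and 3.49 ± 0.21, a difference of 0.38. Neither pair of groups overlapped (exact permutation test p = 0.0286, adjusted 0.0571, each). The ratios of Tnnt3 to Tnnt1 and Tpm1 to Tpm3 differed by 0.10 and 0.19, with overlap (exact p = 0.371 and 0.143). With the libraries that match their label the 4 differences were 0.59, 0.38, 0.05 and 0.07. In TA the differences were 0.26, −0.36, 0.16 and −0.08, each with overlap (exact p = 0.457 to 0.714). The slow share per kilobase in albino EOM was 3.05 ± 0.180% for Tnnc1, 4.35 ± 0.253% for Tnni1, 4.51 ± 0.270% for Tnnt1 and 11 ± 1.12% for Tpm3.

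In the CN3 and CN6 libraries tropomyosin was expressed and troponin was scarce. The 10 members made up 0.0232 to 0.0277% of counts there. Tpm1 read 114.7 to 134.6 CPM over the 16 libraries, Tpm3 78.4 to 98.0 CPM and Tpm2 12.04 to 27.2 CPM. Of these 3 genes' summed RNA per kilobase in C57BL/6 CN3 they held 56.3 ± 0.595%, 35.4 ± 0.766% and 8.34 ± 1.11%. Tpm4, no member, stood at 24.7 ± 2.70 CPM per kb there, above Tpm2 at 9.69. Tnni1 read 4.53 to 10.96 CPM, Tnnc1 1.56 to 5.12 CPM and Tnnt2 1.29 to 5.62 CPM, while Tnnc2, Tnni2 and Tnnt3 stayed at or below 1.095, 1.23 and 2.14 CPM. Tnnt1 was uneven, at 0.728 to 24.4 CPM, and in C57BL/6 CN6 it was below fast Tnnt3 in mean CPM per kb. Tnni1 was above Tnni2 in every CN3 and CN6 group, with the cardiac Tnni3 between them at 1.63 ± 0.957 CPM per kb in C57BL/6 CN3.

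Between the sites of C57BL/6 mice 4 of 10 members were called, against a background of 26.6% of 16004 genes (13.1% higher and 13.5% lower in CN3). Tnnt1 read 23.0, 3.37, 7.39 and 5.97 CPM in CN3 and 1.34, 0.841, 0.849 and 0.728 CPM in CN6, a log2 fold change of 3.36 ± 0.56 (adjusted p = 0.00155), with the library C57BL/6 CN3 1 far above the others. Without it the log2 fold change was 2.54. In albino CN3 it was again uneven, at 4.39, 7.18 and 2.12 CPM and 24.4 CPM in the library labelled albino EOM 2. Tnnc1 read 2.97, 3.25, 4.24 and 5.12 CPM in CN3 and 1.63, 1.84, 2.00 and 1.86 CPM in CN6 (1.04 ± 0.20, adjusted p = 0.00322). Tnnt2 read 4.01, 4.16, 3.92 and 5.62 CPM in CN3 and 2.18, 1.78, 2.19 and 1.81 CPM in CN6 (1.11 ± 0.17, adjusted p = 0.00108). None of these 3 overlapped between the sites. Tpm2 was lower in CN3 (−0.35 ± 0.10, adjusted p = 0.031), at 17.5, 23.8, 18.9 and 21.2 against 25.7, 23.2, 27.2 and 24.6 CPM, with overlap. Its call was lost when any of 6 of the 8 libraries was left out. Of 21 thin filament partners tested, 1 was higher in CN3 and 3 were lower. The motor neuron markers were lower in C57BL/6 CN3 than in CN6, with log2 fold changes from −7.64 for Phox2a to −1.88 for Isl1. That direction is the same as for Tpm2 and opposite to that of Tnnt1, Tnnc1 and Tnnt2. The part of these markers in the members' differences was not tested.

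**Figure D5:**
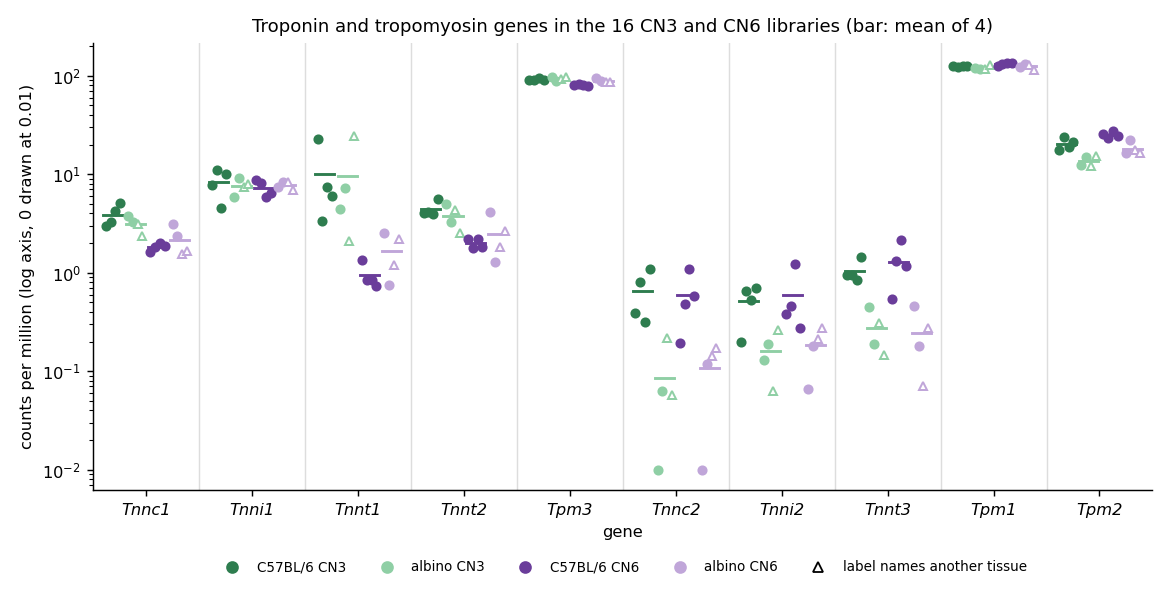
CPM (log axis) of the 10 genes in the 16 CN3 and CN6 libraries, one point per library, with a bar at the mean of each group of 4; open triangles are albino libraries whose label names another tissue, and 2 libraries with 0 counts of Tnnc2 are drawn at 0.01. Tpm1 and Tpm3 lead in every group, and the fast troponins Tnnc2, Tnni2 and Tnnt3 are low, with the C57BL/6 points mostly above the albino ones.

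Between the strains 0 of the 9 members tested in CN3 and 0 of the 8 tested in CN6 were called by edgeR, against backgrounds of 0.283% of 15880 genes (0.208% higher and 0.0756% lower) and 0.12% of 15879 genes (0.0882% higher and 0.0315% lower). An unadjusted p under 0.05 was reached by 3 and 3 members. The backgrounds above are for the adjusted threshold, so no share of all genes stands beside that count. DESeq2 called Tnnt3 and Tpm2 in both, and limma voom called 0 and 0. Tnnt3 read 0.945, 0.949, 0.848 and 1.44 CPM in C57BL/6 CN3 and 0.452, 0.191, 0.312 and 0.145 CPM in albino CN3, a log2 fold change of −1.91 ± 0.37 (adjusted p = 0.0767). In CN6 it read 0.544, 1.30, 2.14 and 1.18 CPM against 0.456, 0.179, 0.0708 and 0.272 CPM (−2.39 ± 0.51, adjusted p = 0.185). Neither site's groups overlapped, at 2 to 78 counts per library. Tpm2 was at 12.5, 15.1, 12.04 and 15.3 CPM in albino CN3 (−0.55 ± 0.12, adjusted p = 0.097) and 16.3, 22.4, 17.5 and 16.5 CPM in albino CN6 (−0.48 ± 0.11, adjusted p = 0.201), below the C57BL/6 libraries given above. Tnnc2 in CN3 was at 0, 2, 7 and 2 counts in albino and 12, 36, 12 and 37 in C57BL/6 libraries (−2.88 ± 0.69, adjusted p = 0.118). Tpm3 in CN6 was at 94.2, 87.8, 87.0 and 86.5 CPM in albino and 78.4 to 83.1 CPM in C57BL/6 libraries, also without overlap (0.12 ± 0.04, adjusted p = 0.331). With the albino libraries that match their label 0 members were called, and in CN3 Tnnt3 stood at −1.68, Tpm2 at −0.55 and Tnnc2 at −4.20, and in CN6 Tnnt3 at −2.04 and Tpm2 at −0.38. The remaining members tested had log2 fold changes from −0.30 to 0.82, with overlap. Tnni2 in both sites and Tnnc2 in CN6 had too few counts to be tested. The 0 in the library labelled albino CN3 1 allows up to 0.0968 CPM for counting error, and that in the library labelled albino CN6 1 up to 0.0977 CPM. The fast myosin Myh4 was lower in albino CN3 too. It read 1.43 to 3.73 CPM in C57BL/6 CN3 and 0.0968 to 0.343 CPM in albino CN3 (−3.65 ± 0.43, adjusted p = 0.00638). Myh4 was the only fast fibre gene called in CN3. The others tested ran from −1.81 for Myl1 to 0.01 for Pvalb. Ckm read 0.358 to 1.00 and 0 to 0.222 CPM there, while the 7 skeletal muscle markers summed to 13.9 to 18.7 and 10.7 to 19.9 CPM. The motor neuron markers summed to 1.62 to 4.45 CPM in C57BL/6 CN3 and 37.5 to 88.1 CPM in albino CN3. The part of these muscle and motor neuron genes in the members' values was not tested.

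Genes with the most similar pattern over the 16 muscle libraries were named by Pearson's r of log2 CPM among 10517 genes. EOM and TA form separate clusters, so each r mostly reads the tissue difference and is a description only. For Tnnc1 they were Lhfpl4 and Chrna1, the muscle acetylcholine receptor alpha subunit (r = 0.996 each), for Tnnt1 Lhfpl4 (0.997) and Ccnd3, a D cyclin (0.996), and for Tnni1 Hk1, a hexokinase (0.997), and Ndrg4 (0.996). One for Tpm3 was Myl6b (0.997), and for Tnnt2 they were Nfatc4, a calcium-regulated transcription factor (0.994), and Myl10 (0.993). For the fast genes they were Pvalb (0.992) and Fem1a (0.990) with Tnni2, Syngr2 (0.992) and Emid1 (0.990) with Tnnc2, and Sh2d7 (0.994) and Anapc5 (0.992) with Tnnt3. For Tpm1 they were Park7 (0.997) and Smyd2 (0.996). Tpm2 had the weakest likeness, with Fam213b (0.942) and Pgam2, the muscle phosphoglycerate mutase (0.941).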

How the data were processed

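The authors deposited raw read counts per gene symbol for 32 libraries, with no normalization. Per the submitters' processing notes, reads were handled with Trimmomatic 0.33, FastQC, HISAT2 2.1.0 on mm10, featureCounts and edgeR; the annotation, strand setting and filters are not given in the sources used here. Positions, GC content and exon lengths came from GENCODE vM21, which held 23350 of 24419 distinct symbols.

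CPM was computed on the library totals (log2 CPM with a prior count of 2). Tests used edgeR 4.0.16 in R 4.3.3 (filterByExpr, TMM, quasi-likelihood F test) on the groups compared, and Benjamini-Hochberg adjustment over all genes tested, with calls at an adjusted p under 0.05. SEs come from the F statistic. Isoform ratios used counts with 0.5 added and exact permutation tests. The fit was tested on simulated data.

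Alternatives were DESeq2 size factors, upper quartile factors, no filter, CPM of at least 1 in 4 libraries, DESeq2 1.42.0, limma 3.58.1 voom, 1 fit of all libraries, offsets for GC content and length, other groupings of the albino libraries, replicate blocks, other pseudocounts and leaving out each library. The albino tissue comparison, fits on library totals alone and the offsets in the interaction were added after seeing the data. The members, lists and albino grouping were chosen with earlier results of these data known. Named beside the members are up to 4 called genes per list with the smallest adjusted p, and, per member, the 2 most similar genes with a mean of at least 5 CPM in muscle; other list genes were chosen after their values were seen. One gene that meets this rule is not reported here.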

Additional observations from a re-analysis of the deposited data

Results flagged for a closer look

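Of 96 groups of 4 values (10 members in 8 groups and 4 ratios in 4 muscle groups), 4 had a library whose gap to the nearest other was too large a part of the range by Dixon's test for 4 values, and chance alone gives about 1 in 20. The library C57BL/6 CN3 4 read 5.62 CPM of Tnnt2 against 3.92 to 4.16 in the other 3, and 1.44 CPM of Tnnt3 against 0.848 to 0.949. The library labelled albino CN6 1, the one low in Hoxb3, read 94.2 CPM of Tpm3 against 86.5 to 87.8 in the other albino CN6 libraries. The log2 ratio of Tnnc2 to Tnnc1 in the library C57BL/6 EOM 1 was 4.22 against 4.45 to 4.49.

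By the interaction term, the albino effect in EOM exceeded that in TA by 0.53 on the log2 scale for Tnnc2, 0.39 for Tnni2 and 0.43 for Tnnt3. With offsets for GC content and gene length these stood at 0.30, 0.21 and 0.28, none of them called (adjusted p = 0.0629, 0.227 and 0.0623).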

How the results depend on the processing

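Of 1338 values recomputed under the alternatives, 1177 kept their direction and side of the threshold. The EOM against TA calls of all 10 members were kept under every alternative run. Causes of changes were not tested. A log2 fold change is meant where no other quantity is named.

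Libraries taken as labelled mix muscle and brain. In EOM 0 members and 1 gene were then called, with Tnnc2 at −0.49, Tnni2 at −0.62, Tnnt1 at −0.61, Tnnt3 at −0.59, Tpm1 and Tpm2 at −0.63 and Tpm3 at −0.66. In TA 18 genes were called, with Tnnt2 at −0.39, Tpm1 at −1 and Tpm2 at −0.70. The interaction called 0 members and 33 genes, and CN3 and CN6 called 0 genes, with Tnnc2 at 12.58, Tnnt3 at 12.49 and Tpm2 at 7.67 in CN3 and Tnnt3 at 13.68 and Tpm2 at 8.14 in CN6. The ratios differed by −4.1, −4.42, −4.6 and −0.61 in EOM (troponin C, I and T, tropomyosin) and by −7.16 (C) and −7.31 (T) in TA. With libraries that match their label, TA called 1 member, with Tnni2 at 0.04 and Tpm1 at −0.01, and the interaction called 1211 genes against 1988, CN3 13 against 45 and CN6 4 against 19.

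Offsets for GC content and length left 2 members and 3541 genes called in EOM against 5848, with Tnnc2 at −0.05, Tnni2 at −0.10, Tnnt1 at −0.12 and Tnnt3 at −0.06, and called 3 members in TA and 0 in the interaction. For TA and the interaction no share of all genes called with the offsets is given. One fit of 32 libraries called 3 members in EOM, 0 in the interaction, 3 in CN3 and 2 in CN6, and 193 and 43 genes in the latter; Tnni1 in EOM stood at 0, and Tnnc2 and Tnni2 in TA at 0.01 and 0.05. DESeq2 called 605 genes and 2 members in CN3 and 189 and 2 in CN6. Limma voom called 1 member in TA, with Tnni2 at 0.01, and 34 genes in CN6. Upper quartile factors gave Tnni1 in EOM at 0.02 and Tnnc2 and Tnni2 in TA at 0.01 and 0.05, and the CPM filter gave Tnni2 at 0.01. The median of all genes in EOM against TA, 0.10, was 0.21 with upper quartile factors, 0.40 without a filter, 0.18 in one fit and 0.78 on library totals alone, a scaling under which Tnni2 left the interaction (0.35, adjusted p = 0.0506).

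Leaving out each library in turn gave 0 to 1 members called in TA, 20 to 210 genes in CN3, 6 to 35 genes and 0 to 1 members (Tpm2, without the library labelled albino CN6 2) in CN6, and 2826 (without C57BL/6 CN6 4) to 4724 genes in CN3 against CN6. Values that crossed 0 ran from −0.16 to 0.05 for Tnni1 in EOM, and in TA from −0.04 to 0.03 for Tnni2, −0.11 to 0.26 for Tnnt2, 0 to 0.12 for Tpm1, −0.24 to 0.13 for the ratio of Tpm1 to Tpm3 and −0.03 to 0.38 for that of Tnnt3 to Tnnt1.

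Whether libraries of the same replicate number came from the same animal is not stated, and their correlations could not settle it. Same-numbered EOM and TA libraries of C57BL/6 correlated at 0.08, 0.01, 0.22 and 0.07, and CN3 and CN6 libraries at −0.07, −0.03, 0.19 and 0.01. Libraries of different number correlated at −0.16 to 0.16 and at −0.2 to 0.12. The highest value of each set was that of the libraries numbered 3. With a replicate block, EOM against TA called 11331 genes and 10 members, and CN3 against CN6 3421 genes and 3 members, without Tpm2. On libraries that match their label, the block called 2641 genes in EOM, 1 member in TA, 5 genes in CN3 and 0 in CN6, with Tnnc1 and Tnni1 in EOM at 0 and 0.11, and Tnnc2, Tnni2 and Tnnt1 in TA at 0.03, 0.06 and 0.11.

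Depth limits the fast troponins of CN3 and CN6, where Tnnc2 had 0 to 40 counts per library, and the slow troponins of TA, where Tnni1 had 40 to 129.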
